A study of Mus musculus with 2 samples.

Results

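The members were 6 genes of the MS4A family, Ms4a4c, Ms4a6b, Ms4a6c, Ms4a6d, Ms4a7 and Ms4a8a, chosen by symbol from the 26124 genes of the count tables and followed through the myeloid cells of the mouse spleen. All 6 were detected in both libraries. In kept cells they held 8939, 7926, 22556, 1054, 606 and 625 unique molecular identifiers (UMIs) in the wild-type library, in that order. The SCD library held 13395, 9841, 31480, 3210, 355 and 1747.

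MS4A genes encode small proteins that cross the cell membrane several times and that often sit beside signalling receptors. The founding members are Ms4a1, which encodes the B cell antigen CD20, and Ms4a2, which encodes the beta chain of the high-affinity IgE receptor of mast cells and basophils. Others are made by monocytes and macrophages, where a macrophage member has been described together with the beta-glucan receptor Dectin-1. Ms4a7 is known as a gene of tissue macrophages, including those of the brain's borders, and Ms4a8a has been described in tumour-infiltrating macrophages.

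Droplet-based single-cell RNA sequencing had been run on spleen suspensions of 1 control mouse, called wild-type, and 1 Berkeley mouse with sickle cell disease (SCD). Both lacked mouse alpha globin, being homozygous for Hbatm1Paz. In the SCD mouse the Hbbtm1Tow allele of the beta globin locus and the transgene Tg(HBA-HBBs)41Paz, which carries human sickle globin, were homozygous too, and it is labelled as sickling. The wild-type mouse was heterozygous for Hbbtm1Tow, hemizygous for the transgene and is labelled as non-sickling. Mice were 12 to 16 weeks old and untreated, and the study's methods place both suspensions on 1 chip. The study's methods describe littermate controls and mice of both sexes, and its results state a mixed genetic background for the SCD strain. The sex of these 2 animals is not given in the sources used here. Red cells had been lysed and dendritic cells (DCs) enriched by removing other cells with magnetic beads. The libraries held 97880318 UMIs in 10845 cells (wild-type) and 189688217 UMIs in 13447 cells (SCD), of which 9423 and 10635 cells passed the filters with median depths of 4884 and 8282 UMIs. The libraries shared 88 cell barcodes. With 1 mouse per genotype the differences between genotypes could not be checked against replicates, and bracketed intervals are exact 95% intervals that cover counting error only.

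Cell types came from clusters named by marker genes, and every name below stands for cells that are like that type. No MS4A gene served as a marker or entered the clustering. Monocytes (1066 wild-type and 1347 SCD cells) comprised classical cells led by Fn1, Vcan and F13a1 (588 and 934), dividing cells (43 and 360) and non-classical cells led by Ace, Adgre4 and Cd300e (435 and 53). Conventional DCs comprised cDC1 led by Xcr1 and Clec9a (170 and 246), cDC2 led by Adam23 (1387 and 210), cDC2 led by Cd209a and Clec10a (151 and 122) and mature DCs led by Fscn1 and Ccr7 (627 and 89). The remaining classes used here were plasmacytoid DCs (pDCs, 749 and 476), red pulp macrophages led by C1qa and Vcam1 (289 and 156) and neutrophils (4366 and 7176). Clusters were unevenly filled, with SCD cells making up 13.1% of Adam23 cDC2, 12.4% of mature DCs, 10.9% of non-classical and 89.3% of dividing monocytes, so that in these a cell type and a state of 1 library cannot be told apart. Adam23 cDC2 had no cDC2 marker among its 10 leading genes, and by their own marker score 594 of its wild-type and 63 of its SCD cells were cDC2 while 484 and 74 were named progenitors. In spite of the DC enrichment, neutrophils were 46.3% of kept cells in the wild-type library and 67.5% in the SCD library. The suspensions held 21 wild-type and 287 SCD B cells. A level is the sum of a gene's UMIs per 1000000 UMIs of the class in a library (CPM). Since a UMI tags the end of 1 transcript, levels of different genes were compared without scaling by length.

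The members lie in 1 gene cluster on chromosome 19 (GENCODE annotation of GRCm38). Ms4a8a (ENSMUSG00000024730) lies at chr19:11067471-11081102 and Ms4a7 (ENSMUSG00000024672) at chr19:11321039-11336146, both on the minus strand. Ms4a4c (ENSMUSG00000024675) at chr19:11404770-11427246, Ms4a6c (ENSMUSG00000079419) at chr19:11469366-11482192 and Ms4a6b (ENSMUSG00000024677) at chr19:11516512-11531256 follow on the plus strand. Ms4a6d (ENSMUSG00000024679) closes the row on the minus strand at chr19:11586604-11604849. The span measures 537.4 kb and holds 8 further MS4A genes. The closest members are Ms4a6c and Ms4a6b, 34.3 kb apart. Near-identical copies limit what reads can show. Of the 31-base words in the last 500 bases of the transcripts, where 3′ reads fall, Ms4a4c shared 20.6% with Ms4a4b and Ms4a6c shared 15.5% with Ms4a6b and 24.9% with any gene, so the split of counts with these genes is uncertain, while the last 500 bases of Ms4a6b, Ms4a6d, Ms4a7 and Ms4a8a shared none with another MS4A gene.

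**Figure D1:**
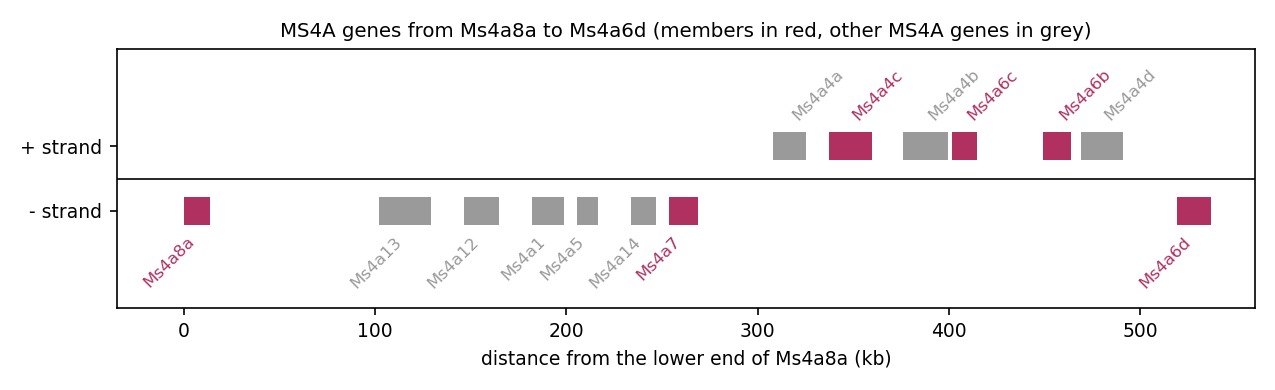
Positions of the 14 MS4A genes from Ms4a8a to Ms4a6d, as distance in kb from the lower end of Ms4a8a, with plus-strand genes above the line and minus-strand genes below it. The 6 members (red) spread over 537.4 kb, and 3 plus-strand members, Ms4a4c, Ms4a6c and Ms4a6b, lie in the right-hand part of the map among other MS4A genes.

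Promoter sequences of 5 of the 6 members were found in RefSeq (GRCm38.p6, 250 bases before each start site). Shown are that of Ms4a6c, the most abundant member, that of Ms4a4c, a plus-strand neighbour with a like pattern over cell types, and that of Ms4a7, the member with a macrophage pattern. They are written 5′ to 3′ on the gene's own strand, and capitals mark a match to AGGAAGT, the core that factors of the ETS family, such as the myeloid factor PU.1, are known to bind.
Ms4a6c promoter, chr19:11469118-11469367, plus strand: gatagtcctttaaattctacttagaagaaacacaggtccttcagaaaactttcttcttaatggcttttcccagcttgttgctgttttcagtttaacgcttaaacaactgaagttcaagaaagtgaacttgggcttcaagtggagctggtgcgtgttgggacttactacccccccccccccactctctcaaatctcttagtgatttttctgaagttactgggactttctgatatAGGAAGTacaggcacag
Ms4a4c promoter, chr19:11407411-11407660, plus strand: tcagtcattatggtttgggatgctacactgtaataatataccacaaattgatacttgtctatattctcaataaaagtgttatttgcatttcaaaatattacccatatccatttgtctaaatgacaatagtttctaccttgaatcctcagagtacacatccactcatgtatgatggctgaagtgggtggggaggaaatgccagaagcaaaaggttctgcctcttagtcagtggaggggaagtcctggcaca
Ms4a7 promoter, chr19:11336147-11336396, minus strand: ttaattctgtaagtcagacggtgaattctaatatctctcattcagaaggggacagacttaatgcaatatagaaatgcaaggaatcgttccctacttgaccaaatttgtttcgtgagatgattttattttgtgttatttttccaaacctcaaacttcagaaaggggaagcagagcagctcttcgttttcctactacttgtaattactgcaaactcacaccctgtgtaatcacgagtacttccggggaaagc

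The AGGAAGT motif was searched on both strands and lay 17 to 11 bases before the start site of Ms4a6c. Ms4a6b held it on the plus strand, 86 to 80 bases before its start, and on the minus strand, 43 to 37 bases before it. These exact letters were in neither window of Ms4a7 and in none of Ms4a4c or Ms4a8a, and 7.69% of the 32851 RefSeq promoters of this length held them. Other forms of the ETS motif were not searched, so the windows without a match may hold such forms. The windows of Ms4a6b and Ms4a6c aligned over 182 bases with 83.5% identity and shared an unbroken run of 48 bases around that plus-strand match. The Ms4a6b window is not printed, because part of it is an exon of another GENCODE transcript of the gene. Matches to the core of the interferon-stimulated element, written as GAAA, any 2 bases and GAAA (2.98% of all promoters), and to TTGCNNAA, a C/EBP core (9.56%), were in no member window. Member windows held 0 to 2 CG pairs except the printed Ms4a7 window, which held 6, the median over all promoters. A match describes letters in a window and is not evidence of binding.

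Across the cell types, the members fell into 3 patterns. Ms4a4c, Ms4a6b and Ms4a6c were high in classical and dividing monocytes and stayed above 50 CPM in both cDC2 types and in mature DCs. Ms4a6d and Ms4a8a were highest in classical monocytes and low in the DC types other than Cd209a cDC2. In wild-type Cd209a cDC2 both stood level with wild-type non-classical monocytes. Ms4a7 was highest in red pulp macrophages. Over the sums of 11 classes in 2 libraries, which share libraries and depth, log2 levels of Ms4a4c and Ms4a6b correlated at Pearson's r = 0.96, those of Ms4a6c and Ms4a6b at 0.95 and those of Ms4a6d and Ms4a8a at 0.89. Ms4a7 stayed between 0.33 and 0.58 with every other member. The 11 classes took in intermediate and late neutrophils and erythroid cells but not dividing monocytes. For Ms4a6d and Ms4a8a many of these sums lay under the pseudocount of 5 CPM, so their correlation rests on few classes. Of all Ms4a6d UMIs in kept cells, 86.6% in the wild-type and 88.4% in the SCD library lay in monocytes, and for Ms4a8a the shares were 92.5% and 91.1%. Such shares depend on the number of cells in a class as well as on the level. For Ms4a4c the monocyte share was 48.8% in the wild-type and 81.6% in the SCD library, beside cell numbers in which the share of conventional DCs was 24.8% and 6.27%.

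**Figure D2:**
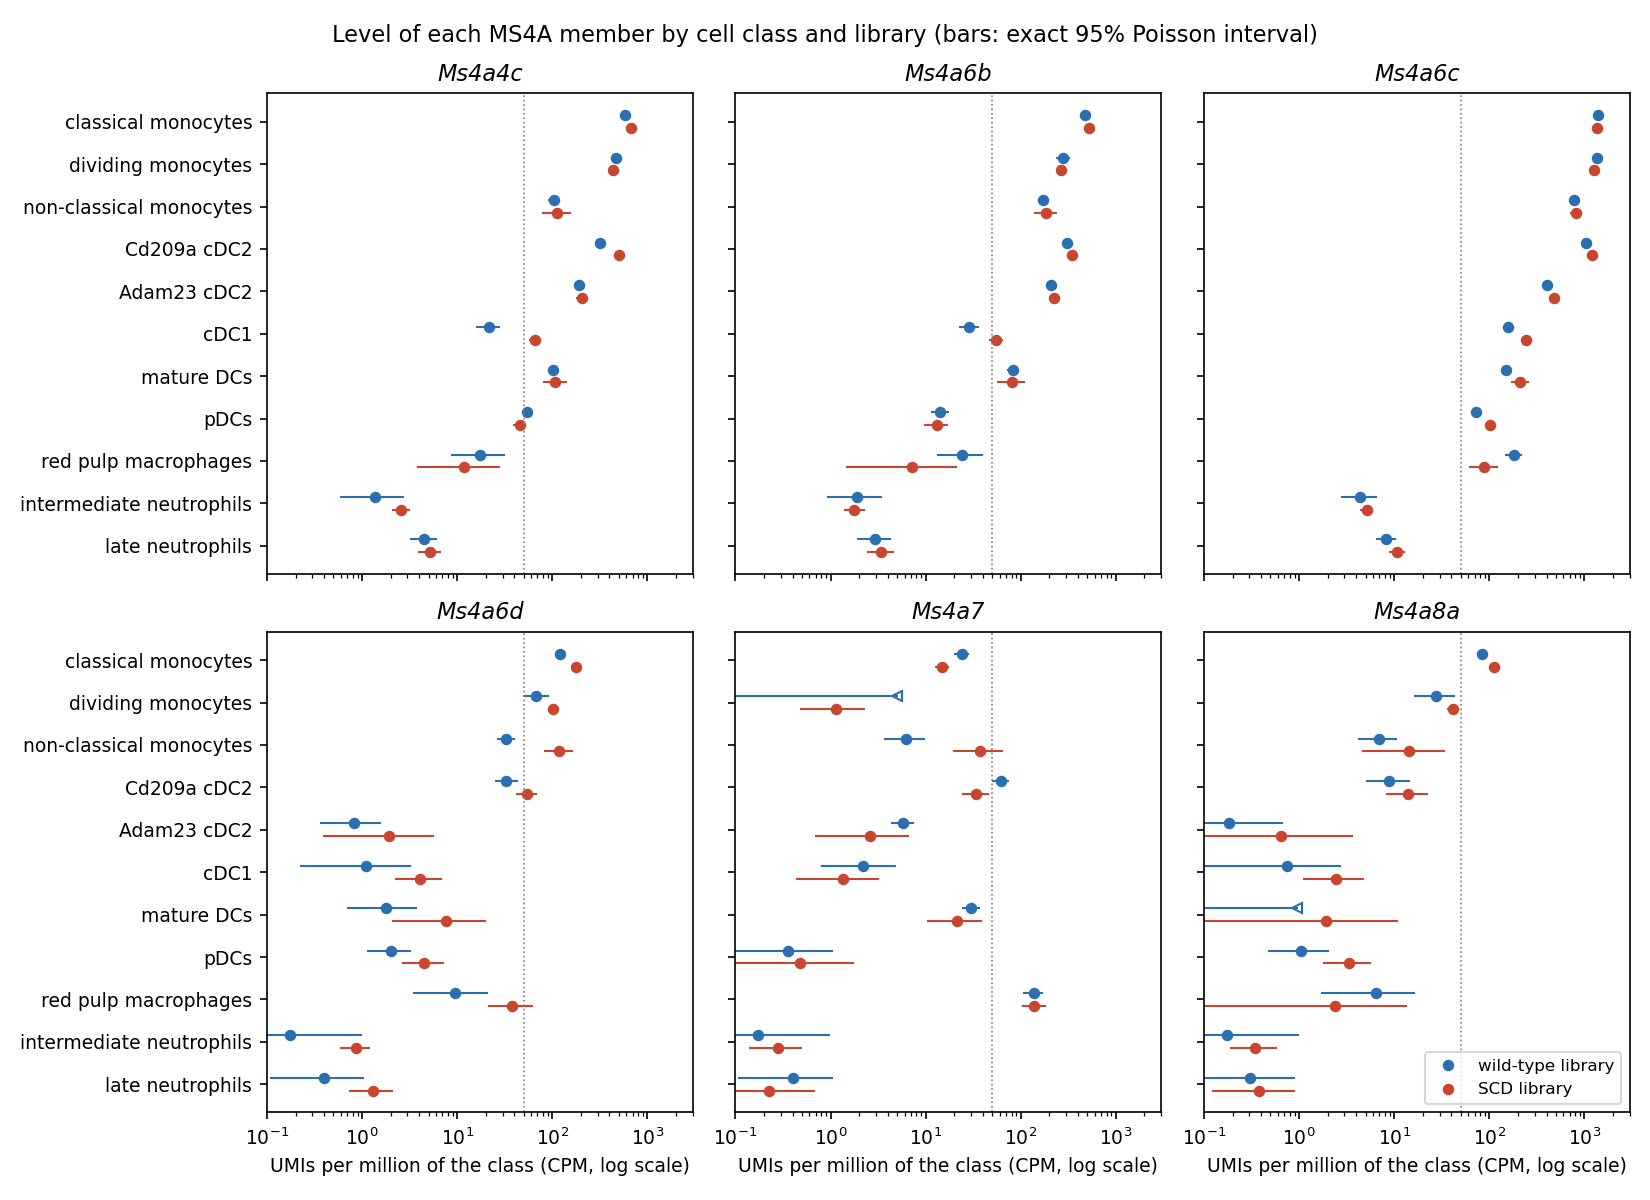
Level of each member in CPM (log scale) by cell class in the wild-type (blue) and SCD (red) library. Bars are exact 95% Poisson intervals, open triangles stand at the upper limit where no UMI was seen, and the dotted line marks 50 CPM. Ms4a6c reached 1395 and 1346 CPM in classical monocytes, and Ms4a7 reached 137 and 138 CPM in red pulp macrophages, above its level in every other class.

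Ms4a6c was the most abundant member in every monocyte and DC class of both libraries. In the wild-type library its level ran from classical monocytes (1395 CPM, 1366 to 1424) and dividing monocytes (1358 CPM, 1275 to 1445), whose intervals overlapped, through Cd209a cDC2 (1033 CPM, 988 to 1079.5) and non-classical monocytes (769.6 CPM, 739 to 801) to Adam23 cDC2 (405 CPM, 393 to 417). Red pulp macrophages (179.8 CPM, 148 to 216), cDC1 (157 CPM, 143 to 173) and mature DCs (151 CPM, 139 to 163) followed with overlapping intervals. pDCs came last among these classes at 72.6 CPM (67.0 to 78.5). Thus a classical monocyte of the wild-type library held 15.1 Ms4a6c UMIs on average and an Adam23 cDC2 3.22.

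Ms4a4c kept a similar order with a steeper fall. It stood at 580.2 CPM (562 to 599) in classical, 474 CPM (425 to 527) in dividing and 104 CPM (92.6 to 116) in non-classical monocytes of the wild-type library, so that the non-classical cells lay below Cd209a cDC2 (319 CPM, 295 to 346) and Adam23 cDC2 (191 CPM, 183 to 199) and level with mature DCs (103 CPM, 93.3 to 114). For Ms4a6b the gap between non-classical monocytes (171 CPM, 157 to 186) and Adam23 cDC2 (206 CPM, 197 to 214) was smaller. cDC1 had little of either gene, with 21.4 CPM of Ms4a4c and 28.7 CPM of Ms4a6b, and pDCs had 54.0 CPM of Ms4a4c and 14.2 CPM of Ms4a6b. The pDCs joined 2 clusters, and in the smaller one, with 96 wild-type cells, 92.7% were called doublets. That cluster held 106 of the 121 wild-type Ms4a6b UMIs, 182 of the 460 Ms4a4c UMIs and 302 of the 618 Ms4a6c UMIs. In the larger cluster alone, wild-type pDCs had 38.7 CPM of Ms4a4c, 2.09 CPM of Ms4a6b and 43.9 CPM of Ms4a6c.

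Ms4a6d reached 119.6 CPM (111 to 128) in wild-type classical monocytes, 68.3 CPM (50.7 to 90.0) in dividing monocytes and 32.7 CPM (26.6 to 39.8) in non-classical monocytes. Cd209a cDC2 had 33.0 CPM (25.4 to 42.3), level with the non-classical cells, and the other 3 conventional DC types and pDCs lay between 0.816 and 2.00 CPM. Ms4a8a stood at 84.2 CPM (77.2 to 91.6) in classical monocytes, 27.3 CPM in dividing and 6.87 CPM (4.25 to 10.5) in non-classical monocytes. Cd209a cDC2 had 8.92 CPM of Ms4a8a (5.19 to 14.3, 17 UMIs), level with the non-classical cells. No Ms4a8a UMI was found in the 627 wild-type mature DCs, which allows a level of up to 0.941 CPM.

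Ms4a7 differed in its leading class. It was highest in red pulp macrophages, at 137 CPM (109 to 169) in wild-type and 138 CPM (105 to 179) in SCD cells, with a ratio of 1.01 (0.711 to 1.42). Cd209a cDC2 came next in the wild-type library with 61.9 CPM (51.2 to 74.1), then mature DCs (30.1 CPM, 24.9 to 36.0) and classical monocytes (24.0 CPM, 20.3 to 28.1), whose intervals overlapped. Dividing monocytes held no Ms4a7 UMI in 43 wild-type cells (up to 5.04 CPM) and 8 UMIs in 360 SCD cells.

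Neutrophils held almost none of the 6 members. Ms4a6c stood at 8.26 CPM in the late neutrophils of the wild-type library (median depth 2354 UMIs) and 10.8 CPM in those of the SCD library (3839), and at 4.32 and 5.17 CPM in the intermediate neutrophils (10961 and 10020). In these 2 stages Ms4a4c and Ms4a6b lay between 1.38 and 5.16 CPM, and Ms4a6d, Ms4a7 and Ms4a8a did not pass 1.29 CPM. B cells of the SCD library (median depth 5064 UMIs) were at a like level, with 6.27 CPM of Ms4a4c, 9.16 CPM of Ms4a6b and 7.23 CPM of Ms4a6c. In neutrophils 49.5 and 48.7 Ms4a4c UMIs were counted per 100 Ms4a6c UMIs in the wild-type and SCD library, against 35.7 and 44.4 in monocytes. Levels of this size were not read as expression, and the part of free RNA in them was not tested.

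To compare cells at equal depth, each cell was thinned to 1000 UMIs. The share of cells without a UMI of any member was then 9.54% in wild-type and 8.46% in SCD classical monocytes. It was 19.3% and 18.3% in Cd209a cDC2, 40.1% and 26.4% in non-classical monocytes, 48.2% and 34.3% in Adam23 cDC2, 67.9% and 82.4% in red pulp macrophages and 83.4% and 79.5% in cDC1. In pDCs it was 92.3% and 88.4%, and in the neutrophil stages it was 97.3% to 98.7%. These shares come from a single draw and carry no interval. In Adam23 cDC2, Ms4a4c was in 9.08% and 8.57% of cells at 500 UMIs and in 30.2% and 31.2% at 2000 UMIs. For Ms4a4c, Ms4a6b and Ms4a6c in this type, the intervals of the wild-type and SCD shares overlapped at each depth. Thinning left out 80 wild-type and 20 SCD red pulp macrophages, whose median depths were only 1332 and 1543.5 UMIs.

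**Figure D3:**
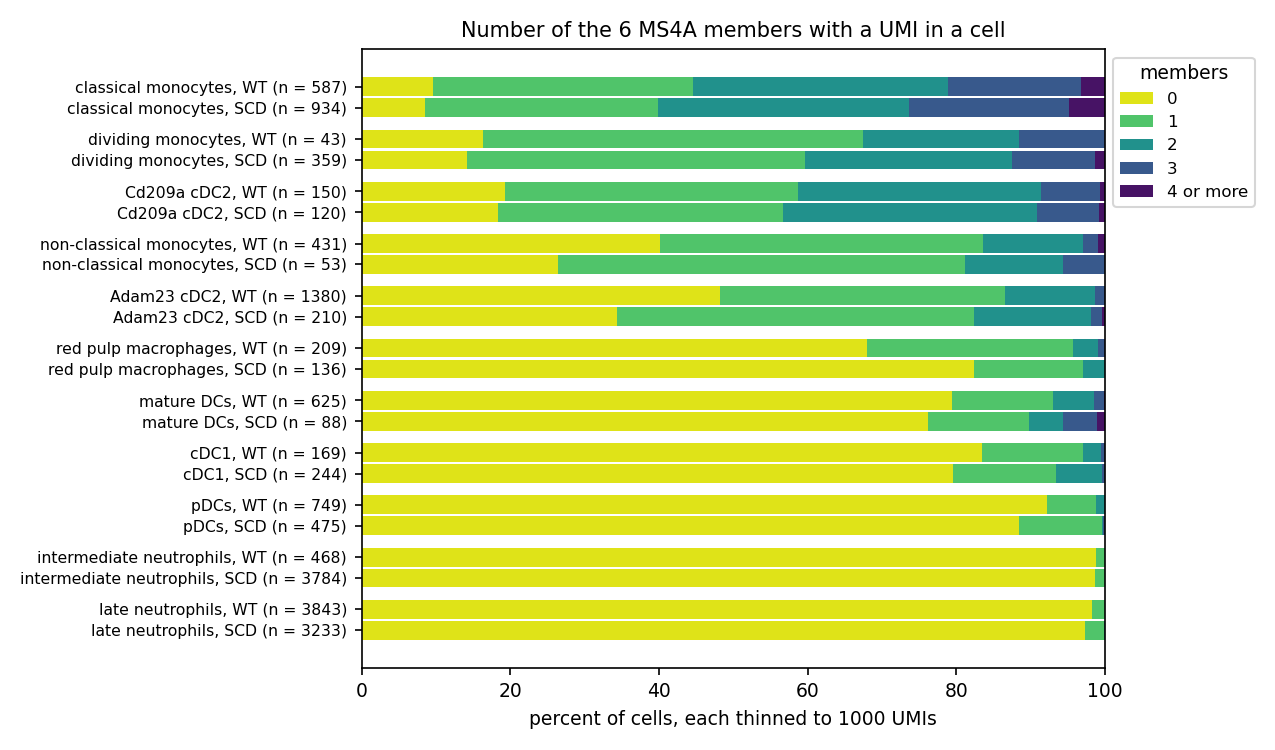
Percent of cells with UMIs of 0, 1, 2, 3 or at least 4 of the 6 members after thinning each cell to 1000 UMIs, by class and library. Classical monocytes had 3 members in 17.9% (wild-type) and 21.5% (SCD) of cells, and over 97% of neutrophils in each library had none.

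The comparison of genotypes asked whether the members differ between the myeloid cells of the SCD and the control spleen. In all monocytes together, 5 members were higher in the SCD library and Ms4a7 was lower. Ms4a4c stood at 429 CPM (417 to 442) in wild-type and 576 CPM (566 to 587) in SCD cells, a ratio of 1.34 (1.30 to 1.39). Ms4a6d stood at 89.8 CPM (84.1 to 95.8) and 149.6 CPM (144 to 155), a ratio of 1.67 (1.55 to 1.80), and this was the highest ratio among the members here. Ms4a8a stood at 56.8 CPM (52.3 to 61.7) and 83.9 CPM (79.9 to 88.2), a ratio of 1.48 (1.34 to 1.63). The abundant Ms4a6b and Ms4a6c differed little, with ratios of 1.13 (1.09 to 1.18) and 1.08 (1.06 to 1.10). Ms4a7 went from 16.9 CPM (14.5 to 19.6) to 10.2 CPM (8.84 to 11.8), a ratio of 0.605 (0.490 to 0.747).

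On the scale of log2(CPM + 5), the ratios of SCD over wild-type monocytes were 0.42 for Ms4a4c, 0.18 for Ms4a6b, 0.11 for Ms4a6c, 0.71 for Ms4a6d, -0.53 for Ms4a7 and 0.52 for Ms4a8a. A gene counted as expressed in a class at 50 CPM and 20 UMIs in at least 1 library, and as past the fold where its log2 ratio was beyond 1 in either direction. Of the 5 expressed members 0 were past the fold in monocytes, where 9.08% of 3449 expressed genes were. The median log2 ratio was 0.42 over the expressed members and -0.09 over all expressed genes. Other markers moved with these sums. Conventional DC markers summed to 3086 and 690.2 CPM in wild-type and SCD monocytes, red pulp macrophage markers to 997 and 317 CPM and genes of dividing cells to 250.8 and 1245 CPM, and doublets were called for 5.82% and 1.86% of cells. These sums mix types in different amounts, since non-classical cells held 30.1% of the wild-type monocyte UMIs but only 53 of the SCD cells. With the SCD types weighted as in the wild-type library, an alternative added after the data had been seen, the log2 ratio was 0.19 for Ms4a4c, 0.12 for Ms4a6b, -0.031 for Ms4a6c, 0.76 for Ms4a6d and 0.42 for Ms4a8a. The Ms4a7 ratio turned to 0.23, which rests on the 13 Ms4a7 UMIs of 7 SCD non-classical cells, while in classical cells Ms4a7 was lower in the SCD library.

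**Figure D4:**
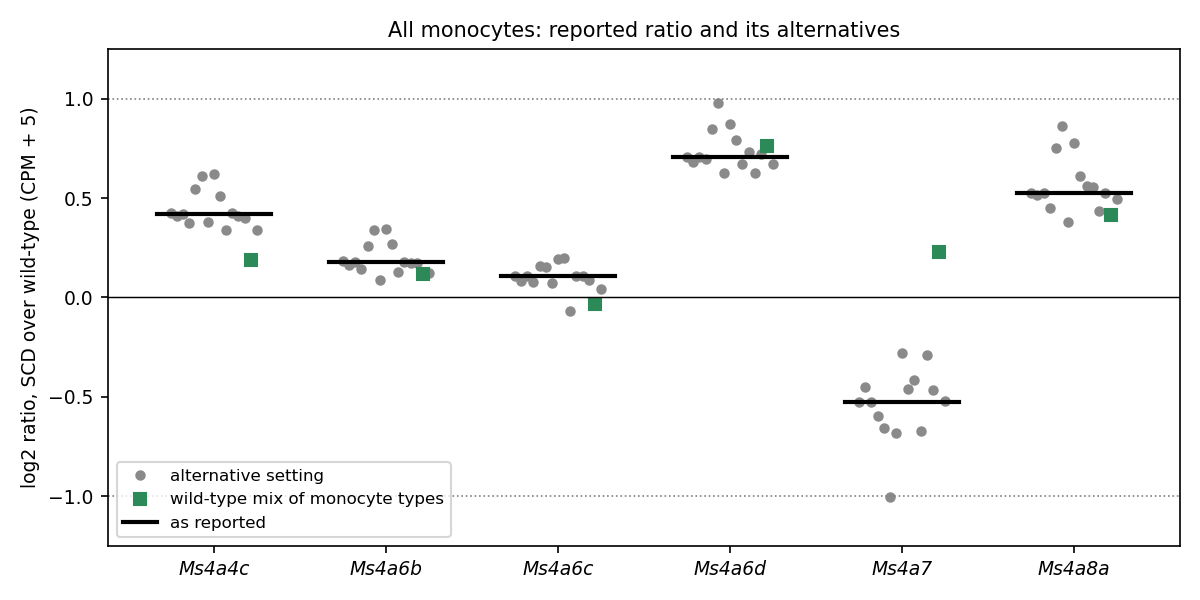
Log2 ratio, SCD over wild-type, of each member in all monocytes (black line, as reported) and under each alternative processing (points), with the wild-type mix of monocyte types as green squares. Ms4a6d lay between 0.63 and 0.98 in every alternative, whereas Ms4a6c ran from -0.069 to 0.20 and Ms4a7 from -1.01 to 0.23.

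In classical monocytes, the inflammatory Ly6c2-bearing type, Ms4a4c, Ms4a6b, Ms4a6d and Ms4a8a were again higher in the SCD library and Ms4a6c and Ms4a7 were lower. Ms4a6d stood at 119.6 CPM (111 to 128) in wild-type and 179.7 CPM (172 to 188) in SCD cells, a ratio of 1.50 (1.38 to 1.63). Ms4a8a stood at 84.2 CPM (77.2 to 91.6) and 112 CPM (106 to 118), a ratio of 1.33 (1.20 to 1.47). Ms4a6c was nearly level, at 1395 CPM (1366 to 1424) and 1346 CPM (1325 to 1367), a ratio of 0.965 (0.940 to 0.991). Its log2 ratio of -0.051 changed sign in 1 of 7 alternatives, to 0.026 with median-of-ratios scaling. Ms4a4c and Ms4a6b were slightly higher in the SCD cells, with ratios of 1.17 (1.12 to 1.21) and 1.10 (1.05 to 1.15). Ms4a7 was lower, at 24.0 CPM (20.3 to 28.1) and 14.9 CPM (12.8 to 17.3), a ratio of 0.623 (0.498 to 0.779). After thinning, 10.2% of wild-type and 14.9% of SCD cells had a UMI of Ms4a6d and 7.67% and 10.9% one of Ms4a8a, against 54.9% and 75.5%, and 50.9% and 64.6%, with all UMIs. Of the 5 expressed members 0 were past the fold, where 2.68% of 3210 expressed genes were, and the medians of the log2 ratio were 0.22 and -0.07.

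Markers of other cells moved with this comparison. The 13 red pulp macrophage markers summed to 803 CPM in wild-type and 359 CPM in SCD classical monocytes, with 3 of 13 higher and none at 0 in either library. The 6 conventional DC markers summed to 2119 and 852 CPM, with none higher and none at 0. The 8 genes of dividing cells summed to 23.5 and 223 CPM, with all 8 higher in the SCD library, and called doublets made up 3.91% and 2.36% of cells. The classical monocyte markers themselves summed to 13419 and 17392 CPM, with 8 of 10 higher. By the marker score of each single cell, 132 of 588 wild-type and 89 of 934 SCD cells of the cluster were named non-classical. The part of these differences in the member ratios was not tested.

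Dividing monocytes had too few wild-type cells (43) for the comparison, and their values stand here as levels. Ms4a4c was at 474 and 435 CPM and Ms4a6c at 1358 and 1247 CPM in the wild-type and SCD library. Ms4a6d was at 68.3 CPM (50.7 to 90.0) and 102 CPM (94.4 to 109), and Ms4a8a at 27.3 and 41.2 CPM. In both libraries the dividing cells held less Ms4a6d and Ms4a8a than the classical cells, with intervals that did not overlap.

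Non-classical monocytes, the patrolling type that depends on Nr4a1, had the largest ratio among members counted as expressed. Ms4a6d stood at 32.7 CPM (26.6 to 39.8, 100 UMIs) in wild-type and 118 CPM (84.8 to 160, 41 UMIs) in SCD cells, a ratio of 3.61 (2.45 to 5.24) and a log2 ratio of 1.71. It was the only 1 of 4 expressed members past the fold, where 3.92% of 3568 expressed genes were, and the median log2 ratios were 0.11 and -0.02. The value rests on few cells, since Ms4a6d was found in 61 of 435 wild-type and 12 of 53 SCD cells, and 3 SCD cells held at least 50% of its SCD UMIs. After thinning, 15 of 431 wild-type cells (3.48%, 1.96 to 5.68) and 5 of 53 SCD cells (9.43%, 3.13 to 20.7) had a UMI, so the intervals of the shares overlapped. The outcome depended on the depth, with shares of 5.40% (3.45 to 7.99) and 20.4% (10.2 to 34.3) at 2000 UMIs, which did not overlap, and of 1.61% and 1.89% at 500 UMIs. Ms4a7, under 50 CPM in both libraries, went from 6.22 to 37.5 CPM on 19 and 13 UMIs. Ms4a4c, Ms4a6b and Ms4a6c had ratios between 1.06 and 1.08, each with an interval that held 1. After thinning the direction turned for Ms4a4c, to a log2 ratio of -0.60, and Ms4a6b moved to 0.54, while equal weight for every cell took Ms4a6b to -0.076.

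In the same cluster the red pulp macrophage markers summed to 1620 CPM in wild-type and 3477 CPM in SCD cells, with 6 of 13 higher. The complement genes C1qa, C1qb and C1qc and also Vcam1, Cd5l and Fcna were at 0 in the SCD cells, whereas Hmox1 and Hpgd led the list. Genes of dividing cells summed to 21.3 and 104 CPM and erythroid markers to 32.4 and 147 CPM, with 7 of 8 higher. Doublets were called for 8.97% of the cells in the wild-type library and for 0 of 53 in the SCD library. Their part in the Ms4a6d ratio was not tested. The log2 ratio stayed between 1.34 and 1.82 in all 8 alternatives run. Removal of called doublets took out no SCD cell, and 434 of 435 wild-type and 51 of 53 SCD cells kept the name by their own score. Neither alternative could therefore decide the part of other cells.

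In cDC1, the cross-presenting type, the 3 expressed members were higher in the SCD library over all cells of the cluster, but much less so over cells with a matching score of their own. Ms4a4c stood at 21.4 CPM (16.2 to 27.6, 58 UMIs) in wild-type and 65.9 CPM (57.9 to 74.7, 242 UMIs) in SCD cells, a ratio of 3.08 (2.31 to 4.18) and a log2 ratio of 1.43. Ms4a6b had 28.7 and 55.0 CPM, a ratio of 1.91 (1.47 to 2.52), and Ms4a6c 157 and 242 CPM, a ratio of 1.53 (1.37 to 1.73). Ms4a4c was past the fold and the other 2 expressed members were not, where 1.97% of 2999 expressed genes were, and the median log2 ratios were 0.83 and -0.05. These UMIs sat in few cells. In the SCD library 8 of 246 cells held at least 50% of the Ms4a4c UMIs, and a single cell held 33. Over the 163 wild-type and 223 SCD cells whose own marker score also gave cDC1, a check added after the data had been seen, the log2 ratios were 0.23 for Ms4a4c, 0.17 for Ms4a6b and 0.21 for Ms4a6c. After thinning, the share of cDC1 with an Ms4a6c UMI was 14.2% and 14.8%, and with an Ms4a4c UMI 3.55% (1.31 to 7.57) and 6.15% (3.48 to 9.94). With an Ms4a6b UMI it was 2.37% (0.649 to 5.95) and 5.74% (3.17 to 9.44). The log2 ratio of Ms4a6b then rose to 1.26, past the fold, on 5 wild-type and 19 SCD UMIs. By their own score 7 of the SCD cells of the cluster were named classical monocytes. Intermediate neutrophil markers in the cluster summed to 556 CPM in wild-type and 6513 CPM in SCD cells, all 10 higher, and classical monocyte markers to 5114 and 5961 CPM, with 9 of 10 higher. Genes of dividing cells summed to 284 and 798 CPM, with all 8 higher. Their part in the cDC1 ratios was not tested.

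Of the cDC2 types, Adam23 cDC2 had ratios near 1 with all UMIs. In this type Ms4a4c had a ratio of 1.08 (0.953 to 1.21), Ms4a6b of 1.10 (0.979 to 1.23) and Ms4a6c of 1.19 (1.10 to 1.29), and 0 of 3 expressed members were past the fold, where 0.646% of expressed genes were. After thinning the log2 ratios rose from 0.10 to 0.40 for Ms4a4c, from 0.13 to 0.43 for Ms4a6b and from 0.25 to 0.49 for Ms4a6c. Intermediate neutrophil markers in the cluster summed to 232 and 1201 CPM, with all 10 higher in the SCD library, and conventional DC markers to 42959.7 and 36336 CPM, with 1 of 6 higher, and their part in the Ms4a6c ratio was not tested. In Cd209a cDC2, Ms4a4c stood at 319 CPM (295 to 346) and 502 CPM (465 to 541), a ratio of 1.57 (1.41 to 1.76), and Ms4a6c had a ratio of 1.15 (1.08 to 1.23). Ms4a6b had a ratio of 1.12 (0.985 to 1.26), with an interval that held 1. After thinning the log2 ratio of Ms4a4c fell from 0.64 to 0.29, and that of Ms4a6b turned from 0.16 to -0.74. Ms4a6d had 33.0 and 53.9 CPM, a ratio of 1.63 (1.15 to 2.32). Ms4a7 went the other way, from 61.9 CPM (51.2 to 74.1) to 33.9 CPM (24.9 to 45.3), a ratio of 0.548 (0.381 to 0.777), and it was lower in classical monocytes too. At least 50% of the Ms4a7 UMIs lay in 6 of 151 wild-type and 4 of 122 SCD cells. Red pulp macrophage markers in the cluster summed to 634 and 305 CPM, with 1 of 13 higher and Mertk and Cd5l at 0 in the SCD cells, and their part in the Ms4a7 ratio was not tested. Here 0 of 5 expressed members were past the fold, where 1.89% of expressed genes were. This cluster is the DC type nearest to monocytes, and its single cells were named cDC2 by their own score in 61 of 151 wild-type and 57 of 122 SCD cells, with 38 and 23 named non-classical and 20 and 21 classical monocytes. Classical monocyte markers in it summed to 6505 and 9008 CPM, with 4 of 10 higher in the SCD library, and called doublets made up 11.3% and 4.10% of cells.

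Mature DCs, which carry antigen to T cell zones, held Ms4a4c at 103 and 107 CPM and Ms4a6b at 81.9 and 80.6 CPM, with intervals of the ratio that held 1. Only Ms4a6c differed beyond counting error, at 151 CPM (139 to 163) and 211 CPM (174 to 254), a ratio of 1.40 (1.13 to 1.72). At least 50% of its UMIs lay in 36 of 627 wild-type and 5 of 89 SCD cells. Intermediate neutrophil markers in mature DCs summed to 235 and 1536 CPM, with all 10 higher in the SCD library, and conventional DC markers to 28560.3 and 22896 CPM, with 1 of 6 higher. In pDCs, the interferon-producing type, Ms4a6c likewise stood at 72.6 CPM (67.0 to 78.5) and 103 CPM (93.2 to 113), a ratio of 1.41 (1.25 to 1.60), while Ms4a4c had a ratio of 0.841 (0.707 to 0.997). In the larger pDC cluster alone Ms4a6c was at 43.9 and 65.9 CPM, and without the smaller cluster, a choice made after the data had been seen, its log2 ratio was 0.53 against 0.47 for all pDCs. Doublets were called for 12.1% of wild-type and 3.36% of SCD pDCs. Conventional DC markers in pDCs summed to 14313 and 9303 CPM, with none of 6 higher, and intermediate neutrophil markers to 619.5 and 1717 CPM, with all 10 higher. The part of these other cells in the ratios of mature DCs and pDCs was not tested. In these classes 0 of 3 and 0 of 2 expressed members were past the fold, where 4.87% and 0.519% of expressed genes were. For the sum of conventional DCs the count was 0 of 3, where 7.13% of expressed genes were past it. Summed conventional DCs had Ms4a6b at 166 and 149 CPM, a ratio of 0.897 (0.836 to 0.962), although the ratio was above 1 in 3 of its 4 types, which the libraries held in different amounts. Of these, only cDC1 had an interval above 1. In Cd209a cDC2 the log2 ratio of Ms4a6b turned to -0.74 after thinning.

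In red pulp macrophages, which clear aged red cells, Ms4a6c stood at 179.8 CPM (148 to 216, 113 UMIs) in wild-type and 88.1 CPM (62.0 to 121, 37 UMIs) in SCD cells, a ratio of 0.490 (0.328 to 0.716) and a log2 ratio of -0.99. Ms4a7 did not differ beyond counting error, as given above. Of the 2 expressed members 0 were past the fold, where 8.52% of 3837 expressed genes were. The log2 ratio of Ms4a6c ran from -1.58 to -0.60 over 8 alternatives and was past the fold in 4. After thinning to 1000 UMIs, 19.6% (14.5 to 25.7) of wild-type and 5.88% (2.57 to 11.3) of SCD cells had an Ms4a6c UMI. At the other depths the intervals overlapped. The shares were 7.61% (4.83 to 11.3) and 3.21% (1.05 to 7.32) at 500 UMIs. At 2000 UMIs they were 22.4% (14.0 to 32.7) and 12.1% (4.99 to 23.3). Ms4a6d was at 9.55 CPM on 6 UMIs and 38.1 CPM on 16 UMIs. Conventional DC markers in these cells summed to 8229 CPM in wild-type and 1072 CPM in SCD cells, with none of 6 higher and Flt3 at 0 in the SCD cells, and classical monocyte markers to 5034 and 2805 CPM, while intermediate neutrophil markers summed to 695 and 3924 CPM. The part of RNA from such cells in the Ms4a6c ratio was not tested.

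**Figure D5:**
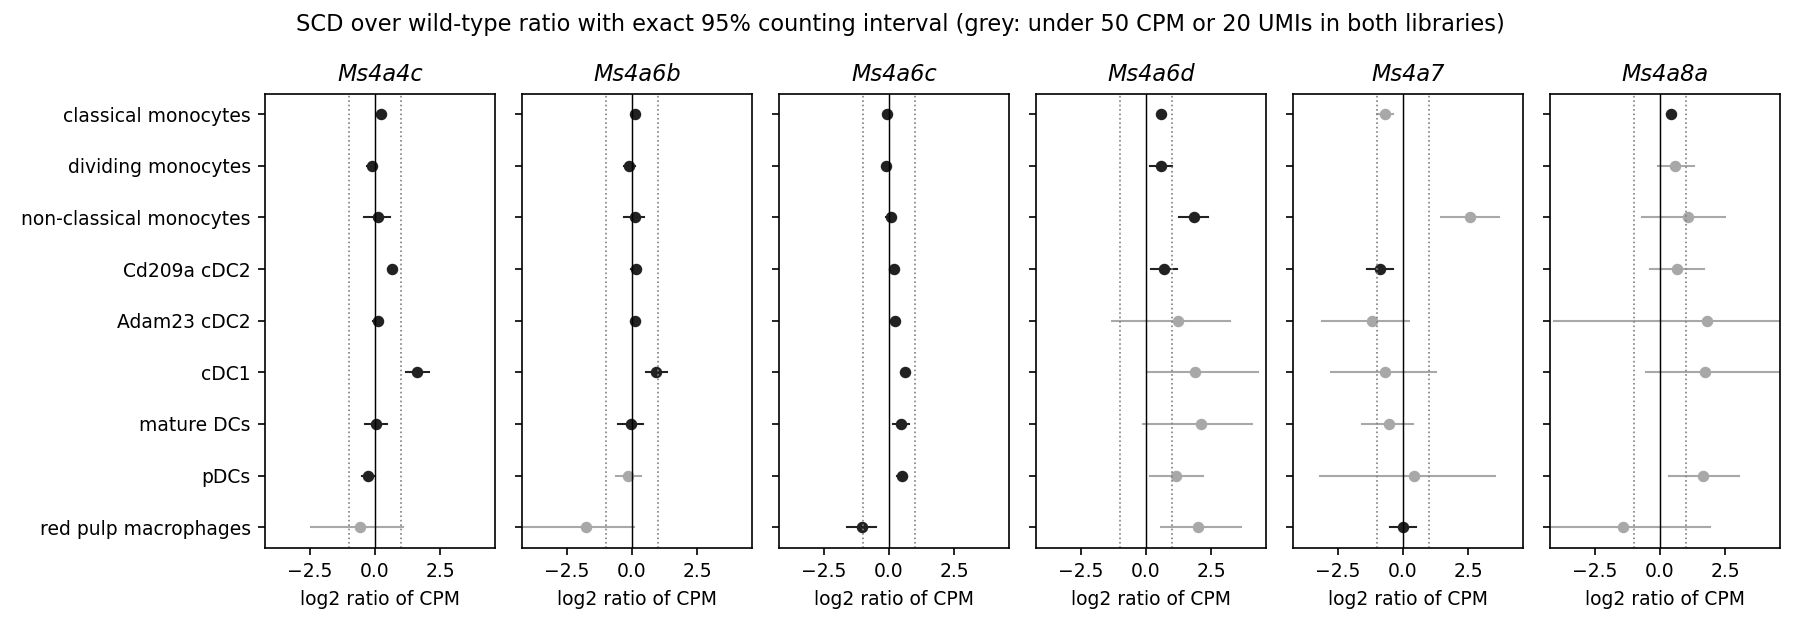
Log2 of the CPM ratio, SCD over wild-type and without pseudocount, of each member by class, with exact 95% counting intervals. Grey points lie under 50 CPM or 20 UMIs in both libraries, dotted lines mark a log2 ratio of 1 in either direction, and a point is missing where 1 library had no UMI. Ms4a6d lies right of 0 in every class, with an interval clear of 0 in each monocyte type, cDC1, Cd209a cDC2, pDCs and red pulp macrophages but not in Adam23 cDC2 or mature DCs. Dividing monocytes are drawn but had only 43 wild-type cells, too few for the comparison. The cDC1 point rests on 3 and 15 UMIs. The pDC point rests on 17 and 19, of which 15 and 16 lay in the smaller pDC cluster of mostly called doublets. The points of Ms4a6c lie on both sides of 0.

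Of the 16 other MS4A and Tmem176 genes of the list, 15 were in the tables. In classical monocytes 3 of them were expressed and 0 were past the fold. Ms4a4b was higher in the SCD library, at 51.3 CPM (45.8 to 57.1) and 66.8 CPM (62.2 to 71.7), and Tmem176a and Tmem176b, related membrane proteins known from DCs, were lower, with ratios of 0.713 and 0.662. In red pulp macrophages Tmem176a went from 129 to 11.9 CPM and Tmem176b from 111 to 4.76 CPM, and both were past the fold. In that class 8.52% of all expressed genes were past it. Conventional DC markers in the same cells summed to 8229 CPM in wild-type and 1072 CPM in SCD cells, and their part in these values was not tested. Tmem176a and Tmem176b were also past the fold in summed conventional DCs, where 7.13% of expressed genes were, but in none of the 4 types. Tmem176a had ratios of 0.914 in Adam23 cDC2, 0.938 in Cd209a cDC2 and 0.8004 in mature DCs. In cDC1, where neither gene counted as expressed, its ratio was 1.94. Both genes were most abundant in mature DCs, at 1883 and 1507 CPM for Tmem176a, and mature DCs numbered 627 wild-type and 89 SCD cells. Ms4a3, a gene of granulocyte precursors, had 953 CPM in the early neutrophils of the wild-type library (10 cells) and 1157 CPM in those of the SCD library (147 cells), where no member passed 4.31 CPM. Ms4a1 was at 0 UMIs in monocytes of both libraries.

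Of 16 receptors, adaptors and regulators around myeloid MS4A proteins, 13 were expressed in classical monocytes, 2 higher and 11 lower in the SCD library, with 0 past the fold upward and 1 downward, where 2.68% of all expressed genes were past it in either direction. The latter was Nr4a1, the regulator of non-classical cells, at 164 and 55.7 CPM. Trem2, a lipid-sensing receptor, was the higher gene with the larger ratio, at 60.2 CPM and 98.3 CPM. Clec7a, which encodes Dectin-1, went from 480.4 to 386 CPM, and Spi1, which encodes PU.1, from 579 to 506 CPM. The median log2 ratio of the list was -0.31, against -0.07 over all expressed genes. In red pulp macrophages 14 were expressed, and Cd163, the hemoglobin-haptoglobin receptor, was the only 1 past the fold, at 512 and 164 CPM, where 8.52% of all expressed genes were.

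Among 6367 genes with at least 50 CPM in a sum, the profiles over the 22 sums most like Ms4a4c and Ms4a6b were those of S100a4, a calcium-binding protein (Pearson's r = 0.93 and 0.96), and Ptpro, a receptor phosphatase (0.90 and 0.93). Next came Ank for Ms4a4c (0.88) and Klf4, a transcription factor of monocytes, for Ms4a6b (0.92). Klf4 also led for Ms4a6c (0.95), followed by Elmo2 (0.93) and Ccdc85b (0.91). Trem2 led for both Ms4a6d (0.91) and Ms4a8a (0.93). Behind it came the scavenger receptor Msr1 (0.91) and Dusp3 (0.89) for Ms4a6d, and Rbks and C1galt1c1 (both 0.92) for Ms4a8a. Ms4a7 was most like Lgmn, a lysosomal protease (0.90), Spic, the factor that specifies red pulp macrophages (0.87), and Tmem106a (0.86). By Spearman's rho other genes led for some members, Necap2, Arhgef37 and Lrp1 for Ms4a6d, Dbi, C1d and Sucla2 for Ms4a8a and Adgre4 for Ms4a7, whereas S100a4 still led for Ms4a4c and Ms4a6b and Klf4 for Ms4a6c. The sums share libraries, and these values describe likeness only.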

How the data were processed

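The authors deposited 1 table of UMI counts per gene and cell for each of 2 spleen suspensions, without normalization. Per the submitters' processing notes it was made with Cell Ranger 4.0.0 on GRCm38.p6, and the gene annotation is not given in the sources used here. The tables hold no cell annotation, so cell types were rebuilt and may differ from those of the study.

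Cells with 500 to 5000 genes, under 15% mitochondrial and under 30% ribosomal UMIs were kept. They were scaled with scran 1.30.0 size factors and clustered in Scanpy 1.11.5 (2000 variable genes, 30 components, 15 neighbours, Leiden resolution 1), both libraries together and without MS4A and Tmem176 genes. Of 26 clusters, 21 were named by the best marker list, and 5 stayed unnamed. Scrublet called 3.79% of wild-type and 2.62% of SCD cells doublets, which were kept. The score threshold (0.215) was taken from the wild-type library and used for both. Counts were summed per class and library, and a class was compared where both libraries held at least 50 cells. Log2 ratios used a pseudocount of 5 CPM. With 1 sample per genotype no test between mice was made. Exact Poisson, conditional and Clopper-Pearson intervals (SciPy 1.17.1) cover counting error only. Where no UMI was found, the upper bound of the interval is the level that count allows. The summing and ratio steps were tested on simulated data.

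The text names all 6 members, the other MS4A and Tmem176 genes as counts and examples, and, for each member, the 3 genes outside the family with the highest Pearson correlation over the sums. Examples from the receptor, adaptor and regulator list were chosen after their values were seen. The members, gene lists and marker lists were chosen with earlier results of these data known. Alternatives covered the pseudocount, scaling, cell weighting, thinning, doublets, cell filters, clustering and naming. The upper limit on genes left out 517 wild-type and 1436 SCD cells.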

Additional observations from a re-analysis of the deposited data

Results flagged for a closer look

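Ms4a6c differed between the genotypes in opposite directions in 2 classes, with a log2 ratio of SCD over wild-type of 0.60 in cDC1 and -0.99 in red pulp macrophages, each with a ratio interval that left out 1. Over cells whose own score gave cDC1 the first was 0.21, and after thinning 14.2% of wild-type and 14.8% of SCD cDC1 had an Ms4a6c UMI. Ms4a7 had a log2 ratio of 1.92 in non-classical monocytes, on 19 wild-type and 13 SCD UMIs, against -0.54 in classical monocytes and -0.78 in Cd209a cDC2. The difference between the classes was not tested in either case.

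Cells over 5000 genes entered no comparison of the report and only the alternative without the upper limit on genes. In these cells of the SCD library Ms4a4c stood at 65.8, Ms4a6b at 46.6, Ms4a6c at 270.5, Ms4a6d at 18.4 and Ms4a8a at 4.75 CPM, above the wild-type levels of 23.4, 14.6, 80.7, 2.74 and 1.45 CPM. In the 5 unnamed clusters of the SCD library Ms4a6c stood at 437, Ms4a6d at 28.8 and Ms4a8a at 14.8 CPM, against 368, 5.27 and 1.69 CPM in the wild-type library. The clusters were filled differently in the 2 libraries, and Ms4a6c was lower in the SCD library in 4 of the 5. In SCD cells 163 of the Ms4a6d and 82 of the Ms4a8a UMIs lay in 1 cluster with 13 wild-type and 80 SCD cells, where Ms4a6d was at 77.5 and 89.3 CPM and 76.9% and 41.3% of cells were called doublets. It had Ighg3 and Igkc beside Vcan, F13a1 and Ms4a6d among its leading genes. Called doublets made up 27.7% and 16.9% of the unnamed cells.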

How the results depend on the processing

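No paired analysis was possible because there was 1 mouse per genotype, and no replicate could be left out. In monocytes the log2 ratios of Ms4a4c (0.19 to 0.62), Ms4a6b (0.087 to 0.34), Ms4a6d (0.63 to 0.98) and Ms4a8a (0.38 to 0.87) stayed above 0 in the 15 alternatives, while those of Ms4a6c changed sign in 2 and that of Ms4a7 in 1. Median-of-ratios scaling gave 0.51 for Ms4a4c, 0.27 for Ms4a6b and 0.20 for Ms4a6c. Equal weight for every cell gave 0.62, 0.34 and 0.19 for these genes, 0.87 for Ms4a6d and 0.78 for Ms4a8a. Thinning to 1000 UMIs gave 0.61, 0.34 and 0.15, with 0.98 for Ms4a6d, -1.01 for Ms4a7 and 0.87 for Ms4a8a. Naming each cell by its own score gave 0.55, 0.26 and 0.16, with 0.85 for Ms4a6d and 0.75 for Ms4a8a. Removing called doublets moved Ms4a6c to 0.076. Without the upper limit on genes Ms4a4c had 0.34 and Ms4a6c -0.069, and without the mitochondrial and ribosomal filters 0.34 and 0.045. Clustering each sample alone gave 0.087 for Ms4a6b, 0.075 for Ms4a6c and 0.38 for Ms4a8a. The wild-type mix of monocyte types, added after the data had been seen, gave 0.19 for Ms4a4c, 0.12 for Ms4a6b, -0.031 for Ms4a6c and 0.23 for Ms4a7. The cause of these shifts was not tested.

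With a minimum of 10 CPM in place of 50 CPM, more genes were tested and more were past the fold, with 573 of 8042 in monocytes (313 of 3449 as reported), 478 of 8563 in conventional DCs (246 of 3449), 174 of 7698 in classical (86 of 3210) and 462 of 7643 in non-classical monocytes (140 of 3568), 187 of 8040 in cDC1 (59 of 2999), 63 of 8241 in Adam23 cDC2 (22 of 3407), 182 of 7782 in Cd209a cDC2 (60 of 3176), 407 of 7699 in mature DCs (160 of 3285), 70 of 8316 in pDCs (18 of 3470) and 453 of 5017 in red pulp macrophages (327 of 3837). The share past the fold thus fell in all monocytes, conventional DCs and classical monocytes and rose in the other 7 classes. Over 8 alternatives per type, Ms4a4c in cDC1 ran from 0.23 to 1.58 and was past the fold in 6, and Ms4a6d in non-classical monocytes was past it in all 8. Depth limits Ms4a7, Ms4a8a and every value of red pulp macrophages, where 1 UMI equals 1.59 CPM in wild-type and 2.38 CPM in SCD cells, and of the 53 SCD non-classical monocytes, where it equals 2.88 CPM.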
